A study of Mus musculus with 6 samples.

Results

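The genes described here are 31 genes of homeostatic microglia and related myeloid cells. They were chosen by name, with no measured value in the rule, but with earlier results of these data known. All 31 were found by symbol among the 35275 gene identifiers of the deposited tables, and all 31 passed the filter on low counts, which left 16938 genes to test. The data are messenger RNA counts from the forebrains of 6 mice of the strain C57BL/6, taken at postnatal day 9. In the conditional knockout (cKO) were 3 mice of the genotype Pdgfra-CreER:Parp1fl/fl, in which the Pdgfra gene drives a tamoxifen-inducible recombinase. The controls were 3 littermates with the same Parp1fl/fl alleles and no recombinase. All 6 mice received tamoxifen into the peritoneum once a day from postnatal day 1 to 3, so the controls carry the floxed alleles and the drug too. Both sexes were used, and the labels do not give the sex of each mouse. Parp1 encodes the main enzyme that attaches poly(ADP-ribose) to proteins.

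Microglia are the resident macrophages of the brain. They enter it before birth, depend on signalling through the receptor Csf1r and on the myeloid transcription factors Spi1 and Irf8, and are kept apart from other macrophages by the factor Sall1. In the first weeks after birth they multiply, spread through the tissue, clear dying cells and synapses, partly by complement, and support the formation of myelin. The Pdgfra gene is used as a driver for oligodendrocyte precursor cells and is also active in fibroblasts of the brain's coverings. It is not a gene of microglia, so the recombinase was not aimed at the cells whose genes are described here.

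Total counts ran from 17262042 to 29310193 per library, and the members had between 45 and 3047 counts in a library. Levels below are in CPM, counts per 1000000 scaled by TMM (a factor that corrects each library for its composition), and a log2 fold change is that of cKO against control. The targeted gene, Parp1, had 80.8, 79.7 and 79.1 CPM in cKO replicates 1 to 3 and 90.8, 97.3 and 85.6 CPM in control replicates 1 to 3 (log2 fold change -0.19, edgeR adjusted p = 0.572; -0.24 and 0.16 without control replicate 3). Control replicate 3 stood apart: along the leading principal component (40.1% of the variance) it was at 31.02, and the other 5 libraries lay between -10.5 and -2.91. Its striatal genes were low and its thalamic genes high on average, so the comparisons of the members between groups are given with and without this library. Control replicate 1 was the only library with reads of the Y-linked gene Ddx3y above 1 count (1123 counts). Xist, a transcript of female cells, had 3 counts there and 20196 to 27661 counts in the other 5 libraries. By these counts the only male was a control, so sex was not balanced between the groups. All defining microglial markers, among them Cx3cr1, P2ry12, Tmem119 and Fcrls, were present in every library.

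The microglial genes had higher mean values in the cKO forebrains, and no single member passed the test across all genes. All 31 members had a positive log2 fold change, from 0.08 to 0.70, with a median of 0.42. Of all 16938 tested genes, 49.8% had a positive value and the median was -0.001. Tested by edgeR (quasi-likelihood, p adjusted by Benjamini-Hochberg), 0 of the 31 members were called at an adjusted p under 0.05, where 0.059% of all tested genes were called higher and 0.207% lower. At an unadjusted p under 0.05, 14 of the 31 were higher and 0 lower, beside 3.52% of all tested genes that were higher and 2.75% that were lower. In 15 of the 31 the values of all 3 cKO mice lay above those of all 3 controls, as they did in 6.08% of all tested genes. The 31 are read from the same libraries and largely the same cells, and are not independent observations. In whole forebrain, a change in the number of microglia and a change in the RNA per microglial cell cannot be told apart. DESeq2, another count test, called 5 members higher (Fcrls, Csf1r, C1qc, Ctss and Laptm5), where it called 0.247% of its genes higher. Without control replicate 3 it called Ctss and none of the other 4, where it called 0.18% of its genes higher.

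Control replicate 3 held the lowest value of the 6 libraries in 29 of the 31 members, where it held the lowest value in 26.2% of all tested genes. The exceptions were Itgam and Fcgr3, whose lowest value was in control replicate 2. Averaged over the 31 members, the log2 level relative to each gene's own mean was 0.25, 0.11 and 0.26 in cKO replicates 1, 2 and 3, and 0.06, -0.12 and -0.56 in control replicates 1, 2 and 3. The summed level of the 31 was 855, 776 and 914 CPM in the cKO libraries, and 752, 654 and 491 CPM in the controls. The groups did not overlap in this sum, but control replicate 1 was close to cKO replicate 2. The ratio of the group means was 1.34 over all 6 libraries and 1.21 without control replicate 3.

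Without control replicate 3 the differences became smaller in 30 of the 31 members. The median log2 fold change was then 0.27, 29 members were positive, and the range ran from -0.05 for P2ry13 to 0.58 for Itgam. Of 17171 genes tested in this smaller comparison, 49.9% were positive. One member, the protease gene Ctss, was then called (edgeR adjusted p = 0.0323), where 0.0932% of all tested genes were called higher. At an unadjusted p under 0.05, 12 members were higher and 0 lower, beside 2.89% of all tested genes that were higher, and 10 of the 12 were also among the 14 of the full comparison. The same 15 members had groups that did not overlap, beside 10.7% of all tested genes. Leaving out a library cannot lower this count of members, so its persistence is not a separate result. Without control replicate 1, the library with Ddx3y counts, 22 members were at an unadjusted p under 0.05, beside 4.14% of all tested genes. Csf1r was then called (edgeR adjusted p = 0.0436), beside 0.0232% of all tested genes called higher. Without cKO replicate 1 the number at an unadjusted p under 0.05 was 9, beside 3.03% of all tested genes, and without cKO replicate 3 it was also 9, beside 2.94%.

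**Figure D1:**
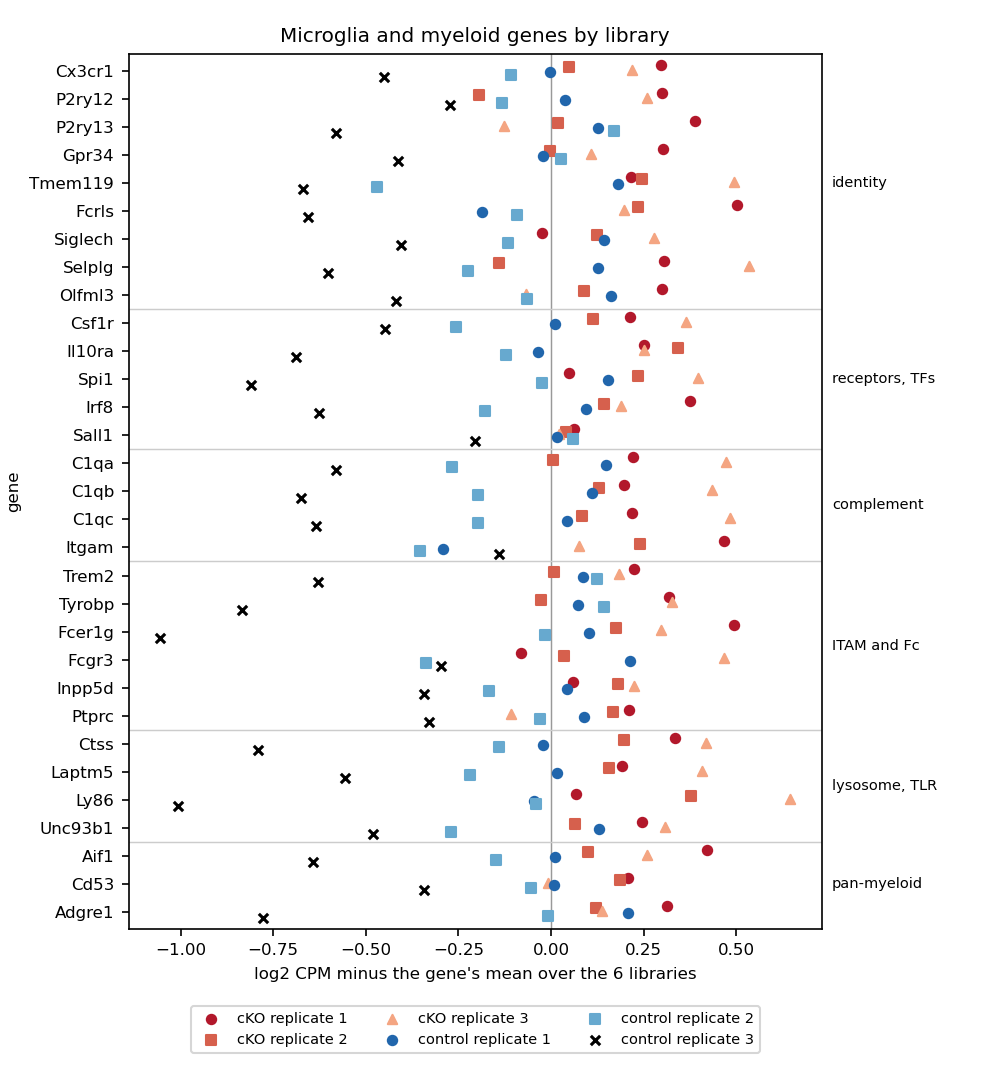
Level of each of the 31 genes in each library, as log2 CPM minus the gene's mean over the 6 libraries (horizontal axis), with genes on the vertical axis grouped by role and 1 symbol per mouse. The crosses of control replicate 3 lie farthest left in 29 of the 31 genes, and the cKO symbols lie right of all controls in 15.

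Promoters of the members were compared because their genes moved together from library to library and PU.1, the product of the member Spi1, binds purine-rich DNA with the core GAGGAA. RefSeq promoter windows (GRCm38.p6, the same build as mm10) were found for 21 of the 31 members. The 250 bases before the RefSeq start held GAGGAA or its reverse complement TTCCTC in 13 of these 21 (61.9%), and in 25.9% of all 27025 genes with such windows. A gene with more than 1 window was counted if any of them held a match, and bases in annotated exons were not left out of these counts. The letters AGGAAGT, which can overlap GAGGAA, or ACTTCCT were found in 7 of 21 (33.3%), against 8.8% of all genes. The longer run GAGGAAGT, which contains both, was found in 2 of 21, C1qc and Inpp5d (9.5% against 2.8%). A match describes letters only, and binding was not measured. The windows of 4 members, without annotated exons, are shown, with matches to GAGGAA or TTCCTC in capitals, 5′ to 3′ on the strand of the gene. Itgam and Inpp5d were among the 4 smallest p when the member with the smallest p in the promoter table was taken from each role group. Fcrls and Laptm5, the others of these 4, have windows that run into annotated exons. Counted as bases upstream of the GENCODE start, their RefSeq starts are at -214 and -191, inside the annotated gene. The first 36 and 59 bases of their windows, before any annotated exon, held 0 matches to GAGGAA or TTCCTC, although both genes are among the 13. C1qb and Ctss were added after their values were seen, as a C1q chain and as the member called without control replicate 3.
Itgam (chr7:128062390-128062639, plus strand): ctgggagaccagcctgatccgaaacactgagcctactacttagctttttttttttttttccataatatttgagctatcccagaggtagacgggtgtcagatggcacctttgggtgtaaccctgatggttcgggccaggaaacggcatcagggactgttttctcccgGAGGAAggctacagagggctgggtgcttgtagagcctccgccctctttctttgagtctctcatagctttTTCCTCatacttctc
Inpp5d (chr1:87620062-87620311, plus strand): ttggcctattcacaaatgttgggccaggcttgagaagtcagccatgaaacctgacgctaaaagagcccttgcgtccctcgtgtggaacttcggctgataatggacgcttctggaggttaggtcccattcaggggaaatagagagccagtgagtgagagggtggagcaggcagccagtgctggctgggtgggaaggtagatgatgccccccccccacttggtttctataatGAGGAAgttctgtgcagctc
C1qb (chr4:136886201-136886450, minus strand): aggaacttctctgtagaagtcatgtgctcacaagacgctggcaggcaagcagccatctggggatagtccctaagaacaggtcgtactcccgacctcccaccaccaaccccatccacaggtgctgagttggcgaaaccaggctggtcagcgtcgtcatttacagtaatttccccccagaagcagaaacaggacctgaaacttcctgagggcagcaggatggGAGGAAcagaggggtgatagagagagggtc
Ctss (chr3:95526536-95526785, plus strand): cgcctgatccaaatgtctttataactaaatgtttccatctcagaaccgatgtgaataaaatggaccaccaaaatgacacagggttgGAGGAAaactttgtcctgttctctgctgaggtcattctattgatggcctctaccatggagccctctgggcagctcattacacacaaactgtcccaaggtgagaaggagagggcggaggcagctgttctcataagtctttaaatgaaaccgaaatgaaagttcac
Counted from the RefSeq start, the matches begin 84 and 15 bases upstream in Itgam, 20 in Inpp5d, 30 in C1qb and 164 in Ctss. The RefSeq start of C1qb lies 13 bases upstream of the GENCODE start used for its gene coordinates, and in the other 3 genes both starts are the same.

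Per length, the genes of complement C1q were the most abundant members. FPKM (fragments per kilobase of gene and per 1000000 counts) were used to compare levels between genes. C1qb was at 75.4 ± 7.66 FPKM in cKO and 54.4 ± 14.7 FPKM in controls (SD, n = 3 mice each), and C1qa and C1qc were at 55.1 ± 14.3 and 53.1 ± 12.5 FPKM in controls. The SD ranges of the 3 chains overlapped in each group, and the chains were not compared library by library. Next came Tyrobp at 55.9 ± 7.71 and 43.8 ± 14.8 FPKM, and Ctss at 48.3 ± 3.54 and 32.0 ± 8.60 FPKM, in cKO and control. At the low end stood Ptprc, which encodes the leukocyte phosphatase CD45, at 1.23 ± 0.162 and 1.09 ± 0.166 FPKM. Averaged over the 6 libraries, 20 of the 31 members were under 10 FPKM, and the lowest C1q chain was 55.3 times the level of Ptprc. Over the 5 libraries without control replicate 3 these values were 20 and 57.0. The SD ranges of Tyrobp and Ctss overlapped in each group, which does not show that their levels were equal within a library. Fcer1g, next in the order at 27.0 ± 3.44 FPKM in cKO, was clearly below Ctss in that group.

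**Figure D2:**
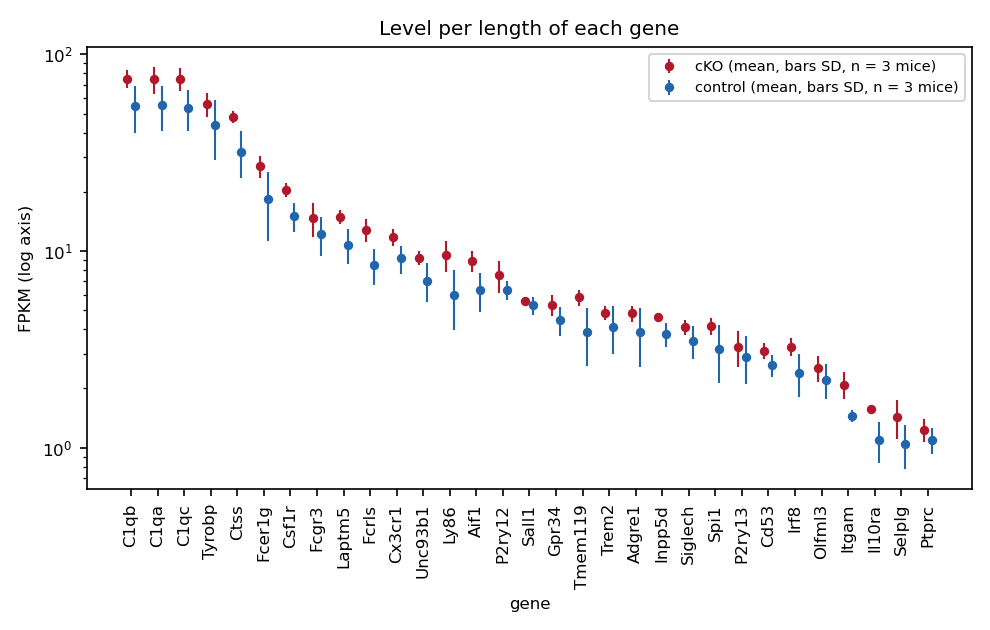
Level per length of the 31 genes in FPKM (vertical axis, logarithmic), ordered by the mean over the 6 libraries, with points for the mean and bars for the SD of 3 mice in each group. The C1q chains stand highest and Ptprc lowest, and the SD was larger in the controls than in cKO in 26 of the 31 genes.

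Among the chemokine, purinergic and surface receptors that mark microglia, Fcrls and Tmem119 had the largest differences and the purinergic receptors small ones. Fcrls, an Fc receptor-like scavenger receptor of mouse microglia (chromosome 3, 87250758 to 87263738 in mm10), was at 33.2, 27.6 and 26.9 CPM in cKO replicates 1, 2 and 3, and at 20.6, 21.99 and 14.9 CPM in control replicates 1, 2 and 3. All cKO values lay above all control values, and control replicate 3 was lowest. The log2 fold change was 0.61 (95% interval 0.29 to 0.93, edgeR adjusted p = 0.244), and 0.45 without control replicate 3 (0.22 to 0.67, adjusted p = 0.118). Fcrls was called by DESeq2 (adjusted p = 0.00944) and by edgeR without a filter on low counts (0.0163), both over all 6 libraries, and not by DESeq2 without control replicate 3. Tmem119, a membrane protein by which microglia are told from blood-derived macrophages, was at 12.1, 12.4 and 14.7 CPM in cKO and 11.8, 7.54 and 6.57 CPM in controls. Control replicate 1 nearly reached the lowest cKO value, and the other 2 controls were well below it (log2 fold change 0.61, interval 0.17 to 1.05; 0.45 without control replicate 3).

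Cx3cr1, the receptor for the neuronal chemokine fractalkine (chromosome 9, 119901616 to 120069879), was at 47.3, 39.8 and 44.8 CPM in cKO and 38.5, 35.7 and 28.2 CPM in controls. The groups did not overlap, by a small margin (log2 fold change 0.37, interval 0.12 to 0.61, edgeR adjusted p = 0.475; 0.24 without control replicate 3). P2ry12, the ADP receptor that guides microglial processes to injury, was at 19.7, 14.01 and 19.2 CPM in cKO and 16.5, 14.6 and 13.3 CPM in controls. Here cKO replicate 2 was below control replicates 1 and 2, so the groups overlapped (log2 fold change 0.26, interval -0.05 to 0.56; 0.18 without control replicate 3). P2ry13, its neighbour on chromosome 3 and also an ADP receptor, had 0.16, which was -0.05 without control replicate 3. The lipid receptor gene Gpr34, the lectin gene Siglech and the secreted glycoprotein gene Olfml3 had 0.26, 0.25 and 0.20, and 0.13, 0.12 and 0.05 without that library. Selplg, the ligand of P-selectin, was at 2.05 to 4.52 CPM and had 0.47 (0.30 without control replicate 3). In these 5 genes and P2ry12 the groups overlapped.

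Of the receptors and transcription factors that microglia need to live and keep their identity, Csf1r had the smallest p and Sall1 the smallest difference. Csf1r, the receptor for the growth factors Csf1 and Il34, was at 95.3, 89.0 and 106 CPM in cKO replicates 1, 2 and 3, and at 82.9, 68.8 and 60.2 CPM in control replicates 1, 2 and 3. The groups did not overlap. The log2 fold change was 0.46 (interval 0.20 to 0.71, edgeR adjusted p = 0.295), and 0.35 without control replicate 3 (0.16 to 0.54, adjusted p = 0.19). Exons of Csf1r overlap those of Hmgxb3 on the opposite strand by 873 bp, so without a stated strand setting its counts are less certain. Such overlaps were 78 bp for Cx3cr1 and 9 bp for P2ry12. Il10ra, the receptor for the anti-inflammatory cytokine interleukin 10, varied little among cKO mice, at 5.43, 5.77 and 5.43 CPM, and was at 4.45, 4.19 and 2.83 CPM in controls (log2 fold change 0.54; 0.36 without control replicate 3).

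Spi1, which encodes the myeloid master regulator PU.1, was at 7.45, 8.48 and 9.50 CPM in cKO and 8.03, 7.08 and 4.11 CPM in controls. Control replicate 1 exceeded cKO replicate 1, and control replicate 3 was far below the rest (log2 fold change 0.42, interval -0.06 to 0.90; 0.17 without control replicate 3). Irf8, a partner of PU.1, was at 12.4, 10.6 and 10.9 CPM in cKO and 10.2, 8.46 and 6.21 CPM in controls, and its groups were separated by a narrow gap (log2 fold change 0.45; 0.27 without control replicate 3). Sall1, a zinc finger factor of microglia that neural progenitor cells also express, was at 29.7, 29.32 and 28.9 CPM in cKO and 28.8, 29.7 and 24.7 CPM in controls. The 5 libraries other than control replicate 3 lay within 1 CPM of each other, and control replicate 3 was lower. The log2 fold change of Sall1 was 0.08 (interval -0.11 to 0.27), the smallest of the 31, and -0.003 without control replicate 3 (-0.18 to 0.17).

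The C1q genes, whose products start the classical complement pathway and tag synapses and debris, lie side by side on chromosome 4 and followed each other closely. C1qa (136895917 to 136898803) was at 76.7, 66.0 and 91.2 CPM in cKO and 72.9, 54.7 and 44.0 CPM in controls. C1qb (136880129 to 136886187) was at 78.8, 75.2 and 92.9 CPM in cKO and 74.2, 60.0 and 43.0 CPM in controls. C1qc (136889804 to 136893065) was at 87.4, 79.5 and 105 CPM in cKO and 77.4, 65.6 and 48.4 CPM in controls. In each chain the order of the libraries was the same except that control replicate 1 lay above cKO replicate 2 in C1qa alone: cKO replicate 3 was highest, control replicate 3 lowest. The log2 fold changes were 0.45, 0.48 and 0.51 for C1qa, C1qb and C1qc, and 0.29, 0.29 and 0.34 without control replicate 3. None was called by edgeR (adjusted p from 0.768 to 0.835).

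Itgam, the alpha chain of complement receptor 3 and the antigen CD11b, was the member for which leaving out control replicate 3 enlarged the difference. It was at 11.5, 9.85 and 8.80 CPM in cKO replicates 1, 2 and 3, and at 6.81, 6.53 and 7.57 CPM in control replicates 1, 2 and 3. Control replicate 3 was the highest control here, and all cKO values were higher still. The log2 fold change was 0.52 (interval 0.21 to 0.84, edgeR adjusted p = 0.317), and 0.58 without control replicate 3 (0.25 to 0.92, adjusted p = 0.232). In the annotation 3450 bp of the Itgam exons are shared with Gm49368 on the same strand, so its counts depend on how shared reads were treated, which is not given in the sources used here.

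Receptors that signal through an immune tyrosine-based activation motif (ITAM) were taken with their adaptors and the phosphatases that act on them. In 2 of these 6 genes, Fcer1g and Inpp5d, all cKO values lay above all controls, beside 6.08% of all tested genes. The same 2 did so without control replicate 3, beside 10.7% of all tested genes. In the other 4 the groups overlapped both with and without that library. Tyrobp, the ITAM adaptor DAP12, was at 33.9, 26.7 and 34.2 CPM in cKO and 28.6, 30.0 and 15.3 CPM in controls. Without control replicate 3 the remaining controls lay inside the cKO range, and the log2 fold change went from 0.36 to 0.10 (-0.12 to 0.32). Trem2, the lipid receptor that signals through Tyrobp, was at 24.6, 21.2 and 24.0 CPM in cKO and 22.4, 23.0 and 13.6 CPM in controls. Its log2 fold change went from 0.24 to 0.03 (-0.18 to 0.24) without control replicate 3, and the values of the groups overlapped. Fcer1g, the ITAM adaptor of Fc receptors, was at 20.4, 16.4 and 17.8 CPM in cKO and 15.6, 14.4 and 6.98 CPM in controls. Its groups did not overlap. The log2 fold change was 0.57 (-0.12 to 1.26) over all 6 libraries and 0.28 (0.02 to 0.53) without control replicate 3.

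Fcgr3, an Fc receptor for immunoglobulin G that uses Fcer1g, overlapped between the groups, at 16.8, 18.2 and 24.5 CPM in cKO and 20.6, 14.03 and 14.4 CPM in controls (log2 fold change 0.29; 0.21 without control replicate 3). It belongs to a family of similar receptors, and whether reads were shared among them was not tested. Inpp5d, the phosphatase SHIP1 that restrains signalling from these receptors, was at 21.5, 23.4 and 24.1 CPM in cKO and 21.2, 18.4 and 16.2 CPM in controls. All cKO values were above all controls, by a narrow gap (log2 fold change 0.31, interval 0.07 to 0.55; 0.21 without control replicate 3). Ptprc had 0.18, and 0.06 without that library.

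Lysosomal and toll-like receptor accessory genes had the highest median of the 6 role groups, 0.55 (0.37 without control replicate 3). All 4 were at an unadjusted p under 0.05 with and without that library, beside 3.52% and 2.89% of all tested genes that were higher at that level. Ctss, the lysosomal protease cathepsin S (chromosome 3, 95526786 to 95556403), was at 66.3, 60.3 and 70.2 CPM in cKO replicates 1, 2 and 3, and at 51.8, 47.7 and 30.4 CPM in control replicates 1, 2 and 3. Control replicates 1 and 2 lay below every cKO library, and control replicate 3 was lower again. The log2 fold change was 0.60 (interval 0.12 to 1.09, edgeR adjusted p = 0.714) over all 6 libraries. Without control replicate 3 it was smaller, 0.40, but its interval was narrower, 0.23 to 0.56, and Ctss rose at an adjusted p of 0.0323 by edgeR and 0.00909 by DESeq2. With cKO replicate 1 also left out it passed narrowly (edgeR adjusted p = 0.049).

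Laptm5, a lysosomal membrane protein of blood-lineage cells, was at 37.3, 36.5 and 43.4 CPM in cKO and 33.1, 28.1 and 22.3 CPM in controls, without overlap (log2 fold change 0.49, interval 0.20 to 0.79, edgeR adjusted p = 0.355; 0.35 without control replicate 3). Ly86, the partner MD-1 of the toll-like receptor homologue RP105, had the largest difference of the 31. It was at 7.70, 9.53 and 11.5 CPM in cKO and 7.10, 7.13 and 3.65 CPM in controls, and it spread widely in both groups (log2 fold change 0.70, interval 0.13 to 1.26; 0.43 without control replicate 3). Unc93b1, the chaperone of endosomal toll-like receptors, was at 21.5, 19.0 and 22.4 CPM in cKO and 19.9, 15.04 and 13.004 CPM in controls, where control replicate 1 was above cKO replicate 2 (log2 fold change 0.40; 0.27 without control replicate 3).

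Of the genes shared by all macrophages, Aif1, the actin-binding protein IBA1 used to stain microglia, was at 8.68, 6.95 and 7.76 CPM in cKO and 6.53, 5.84 and 4.15 CPM in controls. The groups did not overlap (log2 fold change 0.51, interval 0.11 to 0.90; 0.33 without control replicate 3). Cd53, a tetraspanin of leukocytes, and Adgre1, the macrophage antigen F4/80, overlapped between the groups. Their log2 fold changes were 0.25 and 0.33, and 0.15 and 0.08 without control replicate 3.

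**Figure D3:**
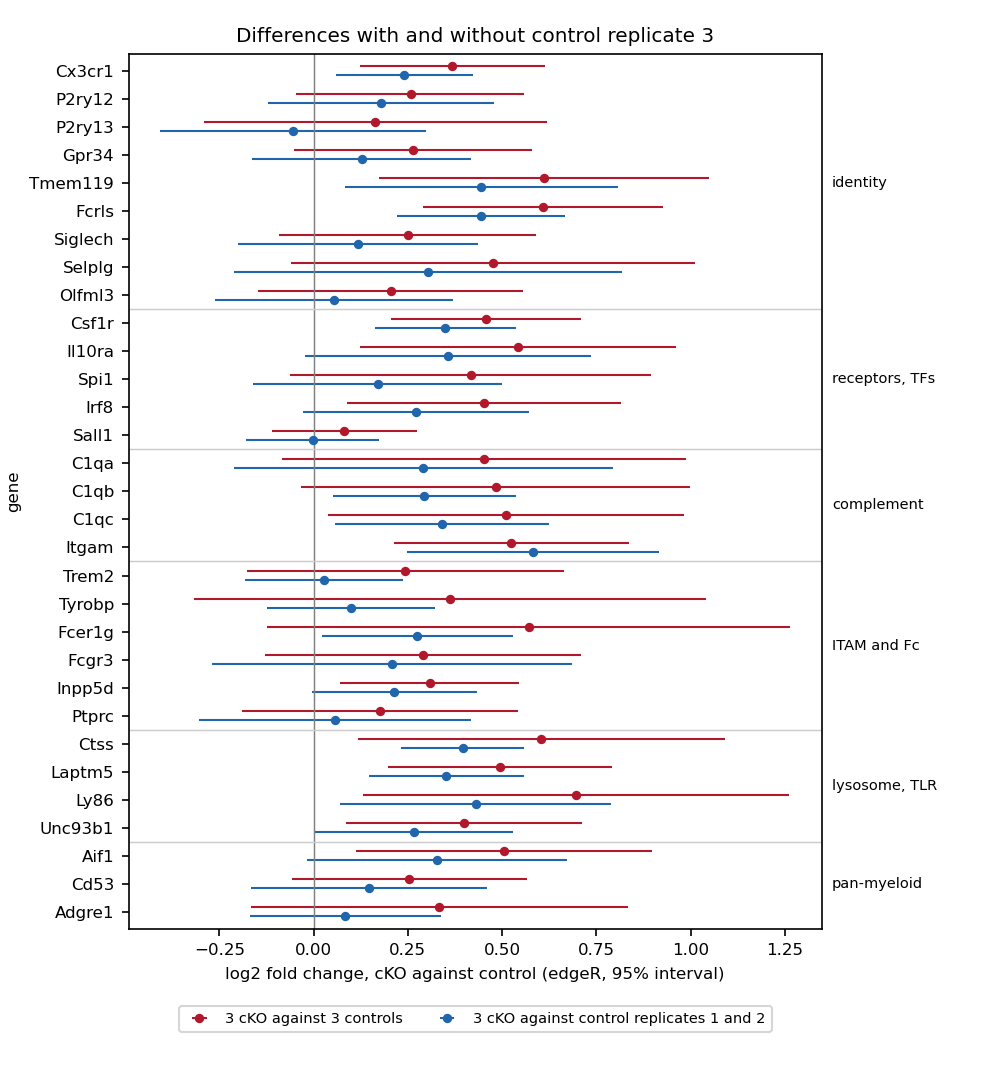
Log2 fold change of cKO against control for each of the 31 genes (horizontal axis) with its 95% interval from edgeR, over all 6 libraries (red) and without control replicate 3 (blue), genes grouped by role on the vertical axis. The blue points lie left of the red ones in 30 of the 31 genes, Itgam being the exception. The blue intervals of 12 genes lie apart from 0, that of Ctss, 0.23 to 0.56, among them.

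The size of the members' differences varied from gene to gene, and whether it varied beyond the spread between mice was not tested. Each gene's log2 level was taken relative to the mean of all 31 in the same library, which centres the members on their own mean. The difference between the group means was then within 0.25 for 29 of the 31. The exceptions were Ly86, at 0.31, and Sall1, at -0.33. Ctss was at 0.22, Aif1 at 0.11 and Olfml3 at -0.20 on this scale, on which no test was run. Such ratios are descriptive. They do not show that the genes differed from one another beyond the spread between mice, nor that any of them stayed the same. Against control replicates 1 and 2 alone, the relative difference was 0.34 for Itgam and -0.29 for P2ry13.

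The drop in control replicate 3 was uneven among the members. Its log2 level minus the mean of control replicates 1 and 2 had a median of -0.52 over the 31. It was lowest for Fcer1g, at -1.10, then Ly86 at -0.96 and Tyrobp at -0.94. It was only -0.23 for P2ry12 and -0.24 for Sall1, and was positive for Itgam, at 0.18.

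Other microglial genes lay mostly in the same direction, with a smaller median. Of 39 tested genes of microglia that are not among the 31, 38 had a positive log2 fold change, 0 were called by edgeR and 12 were at an unadjusted p under 0.05 (35 positive and 7 at that level without control replicate 3). Their median was 0.29, and 0.16 without control replicate 3. Those with the smallest p were the transporter gene Slco2b1 (0.40), the endotoxin co-receptor gene Cd14 (0.79) and the toll-like receptor gene Tlr13 (0.81). Cd14 was at 4.29, 3.55 and 3.96 CPM in cKO and 2.42, 2.35 and 2.05 CPM in controls, so the groups did not overlap and control replicate 3 was close to the other controls (0.71 without it, edgeR adjusted p = 0.375).

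Of 13 tested kinases and adaptors downstream of ITAM receptors, 12 were positive and 0 were called (median 0.23; 0.17 without control replicate 3). Pik3ap1, an adaptor that recruits phosphoinositide 3-kinase, was at 4.74, 4.24 and 3.72 CPM in cKO and 2.08, 2.81 and 3.01 CPM in controls (log2 fold change 0.67; 0.77 without control replicate 3). The exchange factor gene Vav1 had 0.47 and the phosphatase gene Ptpn6 0.47. Of 13 other complement genes, 12 were positive and 0 called (median 0.35; 0.33). C4b, a component that C1q activates, was at 96.9, 111 and 131 CPM in cKO and 89.2, 73.5 and 53.1 CPM in controls (log2 fold change 0.66, edgeR adjusted p = 0.719; 0.47 and 0.631 without control replicate 3). C4b was called by DESeq2 without control replicate 3 (0.00749) and by edgeR without control replicate 3 and cKO replicate 1 (0.0276). The anaphylatoxin receptor gene C5ar1 had 0.70 and the complement inhibitor gene Cd59a 0.38.

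Genes of ligands for microglial receptors had a smaller median than the members. Of 9, 7 were positive and 0 called, with a median of 0.12 (0.06 without control replicate 3). By edgeR 2 of the 9 were higher at an unadjusted p under 0.05, beside 3.52% of all tested genes. In 3 of the 9 all cKO values lay above all controls, beside 6.08% of all tested genes. Which cells made these ligands was not tested. Il34, the neuronal ligand of Csf1r, was at 32.4, 28.6 and 32.9 CPM in cKO and 27.0, 26.3 and 23.1 CPM in controls, without overlap (log2 fold change 0.30, edgeR adjusted p = 0.46; 0.23 without control replicate 3). Pros1, a bridging ligand between dying cells and the receptor Mertk, was at 18.4, 18.8 and 18.2 CPM in cKO and 15.6, 12.9 and 12.9 CPM in controls, without overlap (log2 fold change 0.43, adjusted p = 0.253; 0.38 without control replicate 3). Cx3cl1, the fractalkine that binds Cx3cr1, had 0.14. Among 17 tested genes of activated microglia 13 were positive (8 without control replicate 3), and 1, Clec7a, was called (median 0.17; -0.02 without control replicate 3). Clec7a, a receptor for fungal glucans, was at 1.82, 3.39 and 3.41 CPM in cKO and 0.693, 1.012 and 0.411 CPM in controls. It rose at low counts (log2 fold change 2.03, edgeR adjusted p = 0.039; 1.74 and 0.0397 without control replicate 3), and was not called without control replicate 1 (adjusted p = 0.22), cKO replicate 2 (0.258) or cKO replicate 3 (0.15). Nor was it called with the replicate number as a block (0.104), with a minimum mean of 1 CPM (0.0517) or by limma on the 3 FPKM settings (0.247 to 0.396). Spp1 had 1.03 and the toll-like receptor gene Tlr2 0.60, neither called by edgeR with the main settings. Without control replicate 3 they had 0.91 and 0.41, again not called by edgeR.

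Border macrophage genes also had mostly positive values, with groups that overlapped in their sum. Of these, 10 of 11 tested were positive and 0 called (median 0.26; 0.25 without control replicate 3). Their summed level was 101 to 112 CPM in cKO and 68.7 to 109 CPM in controls, and their lowest library was control replicate 2. The scavenger receptor gene Stab1 was at 54.0, 60.0 and 74.2 CPM in cKO and 66.5, 41.4 and 50.3 CPM in controls, and the mannose receptor gene Mrc1 at 15.9, 17.8 and 15.3 CPM in cKO and 17.0, 10.2 and 15.2 CPM in controls. F13a1, a coagulation factor subunit, was at 7.75, 6.34 and 5.18 CPM in cKO and 6.76, 4.05 and 8.30 CPM in controls, so all 3 overlapped between the groups. The monocyte genes Ly6c2 and Ccr2 were at most 0.243 CPM in any library. The T cell genes Cd3e, Cd3d and Cd3g were at most 0.23 CPM, and the neutrophil gene Ly6g had no counts in any library. Neutrophil genes summed to 0.929 to 3.73 CPM, lymphocyte genes to 7.44 to 9.08 CPM, mostly through Lck (5.36 to 6.76 CPM). Of the mast cell genes Kit was at 37.5 to 63.5 CPM, and the other 5 were at most 0.319 CPM in any library. The monocyte list summed to 203 to 243 CPM, nearly all of it from Fn1, Vcan and Nr4a1. In these 4 lists 0 genes were called by edgeR over all 6 libraries and 1, Vcan, was at an unadjusted p under 0.05, lower in cKO. Without control replicate 3 Vcan, also a gene of oligodendrocyte precursors, fell (log2 fold change -0.41, edgeR adjusted p = 0.00285), and Chil3 and S100a9 were also lower at an unadjusted p under 0.05. The part that border macrophages, which also express several of the 31, had in these differences was not tested.

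Several other lists moved with the libraries. The 10 striatal genes averaged 0.20, 0.14 and 0.29 in the cKO libraries and 0.51, 0.16 and -1.29 in the controls. This is a relative log2 scale like that of the members above, but with 0.5 added to each CPM. Their summed level was 324.3 to 1202 CPM. The 10 thalamic genes averaged -0.12, -0.02 and -0.28 and -0.12, -0.19 and 0.71, in the same order. In 2 of these 10, Prkcd and Ramp3, control replicate 3 was instead the lowest library. The library with the lowest mean of the microglial genes was thus also the one with the lowest striatal and the highest thalamic mean. Red blood cell genes ranged from 7.99 CPM in control replicate 3 to 187 CPM in control replicate 1 in sum. The 20 interferon-stimulated genes were all positive and 1, Ifi27, was called. Their mean was 1.15, 0.34 and 0.11 in the cKO libraries and -0.57, -0.51 and -0.52 in the controls, so they were highest in cKO replicate 1, whereas the members were about as high in cKO replicate 3. The neuronal, astrocyte and endothelial lists had medians of 0.01, 0.03 and 0.08, with 0 genes called by edgeR in each and 0 at an unadjusted p under 0.05. Without control replicate 3 they were 0.04, 0.04 and 0.09, again with 0 called, and 3 genes (2 of astrocytes, 1 of neurons) were at an unadjusted p under 0.05. Genes of oligodendrocyte precursors went the other way: 4 of 9 tested genes fell (Neu4, C1ql1, Tnr and Gpr17; median -0.71, and -0.80 without control replicate 3, where Vcan and Matn4 also fell). The part of brain region, blood content and interferon response in the members' differences was not tested. Over the 5 libraries without control replicate 3, where the striatal list lay between 0.14 and 0.51, the members' median log2 fold change was 0.27. That of the striatal list was -0.14, with 0 of 10 genes positive, so the groups still differed in this list. How the 2 lists relate was not tested.

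**Figure D4:**
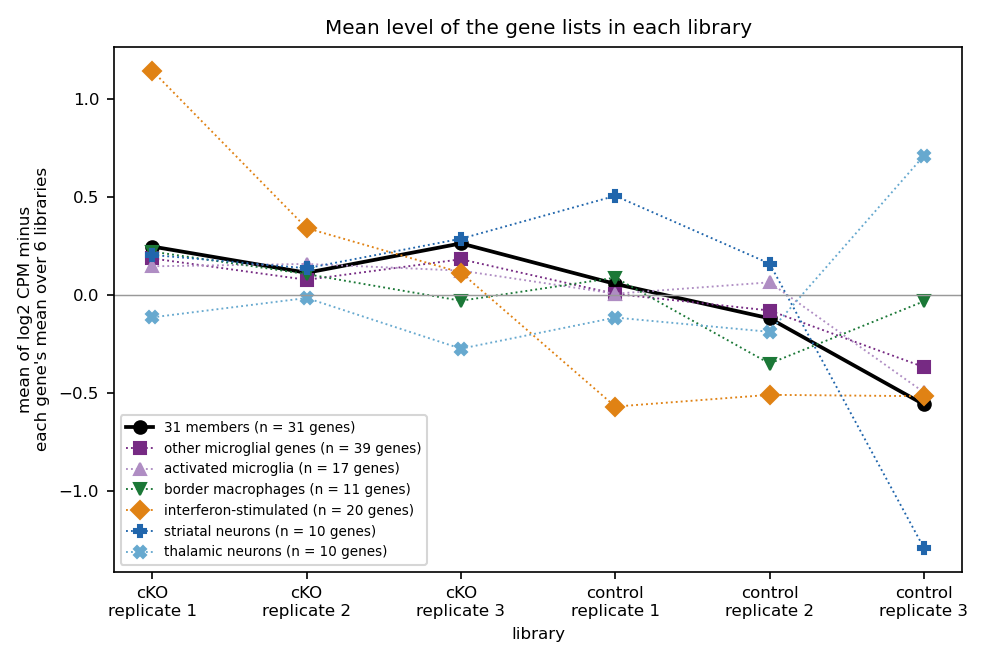
Mean over the genes of each list of log2 CPM minus the gene's mean over the 6 libraries (vertical axis) in each library (horizontal axis). For the lists other than the 31 members 0.5 was added to each CPM. The solid line of the 31 members falls to its lowest point in control replicate 3, where the striatal list is also lowest and the thalamic list highest, while the interferon list separates cKO from control in every library.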

How the data were processed

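Poly-T selected RNA of 6 forebrains was sequenced with a directional kit (labels' protocols). Counts, as deposited, are whole reads per Ensembl gene. The deposited FPKM values equal the count divided by 1 length per gene and the library total (whole lengths within 0.01 bp in 100% of values). The submitters' processing notes list CASAVA, STAR 2.5, HTSeq 0.6.1, DESeq 2.1.6.3 and mm10 with no roles. How strand was set, and which annotation was counted, is not given in the sources used here. GENCODE M21 named 34490 of 35275 identifiers.

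Counts were tested with edgeR 4.0.16 (R 4.3.3): filterByExpr (minimum count 10, minimum total 15), TMM, robust quasi-likelihood test, 3 mice against 3, two-sided, Benjamini-Hochberg adjustment over all tested genes, calls under 0.05. Intervals are at 95%. An exact permutation test of 3 against 3 cannot go below p = 0.1. List means per library used log2(CPM + 0.5), those of the 31 members log2 CPM. Alternatives were DESeq2 1.42.0, limma 3.58.1 on voom weights or log2 FPKM (pseudocounts 1 and 0.1, minimum mean 0.5 FPKM), other scalings and filters, a replicate block and left-out libraries. DESeq2 without control replicate 3 was chosen after seeing the data. The scripts were tested on simulated data. The members and lists were chosen with earlier results of these data known. All 31 members were to be named, and of each other list called genes and the 3 with the smallest p. For cell types outside the microglial and border lists, values are given per list, with a few genes chosen after their values were seen. Csf1 and Vcan each stand in 2 lists. The myelin list is not reported here.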

Additional observations from a re-analysis of the deposited data

How the results depend on the processing

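No alternative setting called a member lower. The number of called members, 0 by edgeR over all libraries, was 5 by DESeq2, 1 without a filter on low counts (Fcrls), 1 by DESeq2 without control replicate 3, and 1 without both control replicate 3 and cKO replicate 1 (Ctss in both). Leaving out 1 library gave 0 to 1 called members, 9 to 22 members higher at an unadjusted p under 0.05 (14 with all libraries) and 15 to 23 with groups that did not overlap; the share of all tested genes at that p was 2.06% to 4.67%, and that with groups that did not overlap 9.22% to 12.7%, where it was 3.52% and 6.08% with all libraries. The 9 came without cKO replicate 1 and again without cKO replicate 3. The number of members whose groups did not overlap cannot fall when a library is left out. Over all genes 45 were called. This number was 108 by DESeq2, 84 by DESeq2 without control replicate 3, 111 without a filter, 24 on log2(FPKM + 1) and on log2(FPKM + 0.1), 21 on log2(FPKM + 1) without a filter, and 85 without control replicate 3 and cKO replicate 1, and it ran from 28 to 60 with 1 library left out. The members' median log2 fold change ran from 0.25 to 0.58 over the 19 alternatives. Single log2 fold changes turned sign for P2ry13 (-0.048 by DESeq2 without control replicate 3; from -0.21 to 0.30 by edgeR with libraries left out), Sall1 (-0.013 to 0.134; -0.003 without control replicate 3 alone), Olfml3 (-0.044 to 0.342), Trem2 (-0.014 to 0.376) and Ptprc (-0.003 to 0.268), the lowest value in each being that without control replicate 3 and cKO replicate 1. The border macrophage gene F13a1 turned to -0.14 without cKO replicate 1 and -0.24 without control replicate 2. The cause of these changes was not tested.

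With the replicate number as a block, 0 members were called and the median was 0.45, and over all genes 32 were called. The deviations of libraries of the same number had correlations of -0.019, -0.063 and -0.015 across genes, and those of different numbers -0.077 to 0.118. With 3 libraries a group, such values cannot settle whether the numbers pair the mice. With 3 mice a group, the 95% interval of 17 of the 31 log2 fold changes included 0. Whether the libraries of a group come from separate litters is not stated, and p-values measure only the spread between these mice.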

Other observations

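Cell cycle genes varied in a way that resembled the members only in part. Of 15 tested, 14 had a positive log2 fold change and 0 were called by edgeR, with a median of 0.38 (0.20 without control replicate 3). Kif11, a mitotic kinesin, was at 12.3, 12.3 and 9.60 CPM in cKO and 6.12, 8.14 and 5.70 CPM in controls, without overlap. Its log2 fold change was 0.77 (edgeR adjusted p = 0.12), and 0.655 without control replicate 3 (edgeR adjusted p = 0.167). The list was lowest in control replicate 3 and highest in cKO replicate 1, while cKO replicate 3, the highest for the members, had a mean of 0.02.

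Spp1, the secreted phosphoprotein osteopontin of activated microglia, was at 26.8, 22.2 and 15.1 CPM in cKO and 9.87, 12.5 and 8.81 CPM in controls, with all cKO values above all controls. Its log2 fold change was 1.03 (interval 0.52 to 1.55), and 0.91 without control replicate 3 (0.26 to 1.56). It was not called by edgeR (adjusted p = 0.253) and was called by DESeq2 (2.93e-05), by edgeR without cKO replicate 3 (0.00785) and by edgeR with the replicate number as a block (0.0409). Without control replicate 3 it was not called by edgeR (adjusted p = 0.587) and was called by DESeq2 (0.00117).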
